A study of Homo sapiens with 9 samples.

Results

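Of 10 transcription factors that set the fate of myeloid progenitor cells (MYC, MYB, GFI1, CEBPA, CEBPB, CEBPE, SPI1, RUNX1, GATA1 and IRF8), 7 had a named probe set and are described here: MYC, MYB, GFI1, SPI1, RUNX1, GATA1 and IRF8. CEBPA, CEBPB and CEBPE are not analysed here. The members, and the gene lists used below, were chosen by name with earlier results of these data known. Their shares of calls beside those of all genes are thus a description. Each member was read at its probe set with the highest mean over the 9 arrays, and each of the 7 had 1 probe set. They are 7 of 14778 named genes tested. The cells were of HL-60 clone 15, a human promyelocytic leukaemia cell line that serves as a model of eosinophil precursors, and all of them carried a lentiviral construct that 4-hydroxytamoxifen (4-OHT) switches on. The 3 groups of 3 arrays were HL-60-RhoH without 4-OHT (uninduced), HL-60-RhoH with 100 nM 4-OHT (induced), and HL-60-GFP with 100 nM 4-OHT, where GFP is a fluorescent protein that serves as the control insert. The labels call the 3 samples of a group biological replicates and do not say whether a transduced population was 1 clone. No group of GFP cells without 4-OHT was used here, so the drug, the transduced population and leak of the construct cannot be told apart.

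MYC is a basic helix-loop-helix factor that pairs with MAX at the E-box and drives growth and ribosome production, and HL-60 cells are known for carrying extra copies of its gene. MYB keeps progenitors immature and dividing, and GFI1 is a zinc finger repressor needed for neutrophil formation. In HL-60 cells MYC and MYB transcripts are known to fall when the cells are made to mature. SPI1 (PU.1) and IRF8 direct the monocyte and dendritic fate, GATA1 the erythroid, megakaryocyte and eosinophil fates, and RUNX1 is needed for blood stem cells to arise.

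Sequences help to place the regulators beside the genes they act on. The 250 bases before the start site are shown for MYB, for the outermost start of GFI1, and for CDK4 and APEX1. CDK4 and APEX1 are MYC target genes whose signal followed the order of MYC, and they were chosen because their windows held an E-box. TERT met both conditions and is not shown, and the window of PHB1, also in that order, held none. The E-boxes of CDK4 and APEX1 are thus a description of that choice. All sequences shown are RefSeq sequences of GRCh38.p14, read 5′ to 3′ along the gene's strand. MYB lies at chr6:135181058-135181307 (plus strand), and capitals mark a match to AACNG, the core bound by MYB, 15 bases before the start. GFI1 lies at chr1:92486926-92487175 (minus strand), and capitals mark AATC, the core bound by GFI1, 229 bases before the start. Both factors are known to act on their own genes. CDK4 lies at chr12:57752311-57752560 (minus strand) and APEX1 at chr14:20454976-20455225 (plus strand), and capitals mark the E-box CACGTG.
MYB: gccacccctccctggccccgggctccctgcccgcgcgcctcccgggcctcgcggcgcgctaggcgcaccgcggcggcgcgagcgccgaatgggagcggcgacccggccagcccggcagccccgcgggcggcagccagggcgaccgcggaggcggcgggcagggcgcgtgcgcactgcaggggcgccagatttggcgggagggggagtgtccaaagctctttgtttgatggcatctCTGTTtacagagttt
GFI1: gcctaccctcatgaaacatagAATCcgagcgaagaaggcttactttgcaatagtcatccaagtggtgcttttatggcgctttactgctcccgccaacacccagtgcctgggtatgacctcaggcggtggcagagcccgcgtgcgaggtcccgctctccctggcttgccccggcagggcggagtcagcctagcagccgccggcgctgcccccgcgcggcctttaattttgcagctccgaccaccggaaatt
CDK4: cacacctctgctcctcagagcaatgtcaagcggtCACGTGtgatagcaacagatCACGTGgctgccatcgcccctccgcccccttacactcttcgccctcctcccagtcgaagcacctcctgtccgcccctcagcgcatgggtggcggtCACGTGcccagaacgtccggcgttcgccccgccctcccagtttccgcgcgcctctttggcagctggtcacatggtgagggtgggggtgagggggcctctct
APEX1: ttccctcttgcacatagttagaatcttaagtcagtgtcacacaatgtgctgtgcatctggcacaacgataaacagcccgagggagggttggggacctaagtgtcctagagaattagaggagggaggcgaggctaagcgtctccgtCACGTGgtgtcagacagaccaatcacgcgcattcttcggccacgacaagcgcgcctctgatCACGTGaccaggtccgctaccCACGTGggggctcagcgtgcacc

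Matches on both strands were counted. CDK4 holds 3 E-boxes, at 216, 196 and 101 bases before the start, and APEX1 holds 3, at 105, 44 and 23 bases. Over 35116 windows of 250 bases the E-box was found in 6.34%, AACNG in 70.6% and AATC in 64.8%, so a match to either of the short cores is common. No E-box was found in the windows of the 8 listed factors whose windows were searched (MYB, GFI1, CEBPA, CEBPB, CEBPE, RUNX1, GATA1 and IRF8). MYC and SPI1 were not among them.

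The arrays show an established promyelocyte line. Of the 6 measured promyelocyte markers (MPO, PRTN3, AZU1, CTSG, SRGN and CD38), 5 lay above the 75th percentile of the genes and CD38 lay at percentile 32.6. Of the 4 measured lymphocyte markers NKG7 lay at percentile 81.4 and the other 3 at 34.8 to 53.7. The erythroid and megakaryocyte markers PF4 and GP9 lay at percentiles 54.9 and 43.4, and the monocyte markers CD14, CSF1R and CD163 at 11.5 to 57.1. Of the epithelial and fibroblast markers KRT18 lay at percentile 84.6, and KRT8, EPCAM and DCN at 2.75 to 52.7. Correlations between arrays of a group, taken across all probe sets, were 0.974 to 0.996. The replicate 1 arrays of both RhoH groups and induced replicate 3 deviated most from their group means. The SD of that deviation was 0.200 to 0.206 on these 3 and 0.090 to 0.162 on the other 6. RHOH itself did not follow its label. The arrays labelled uninduced had a mean of 5.21 ± 0.06 log2 units (SD, n = 3), those labelled induced 5.59 ± 0.14 and those labelled GFP 5.93 ± 0.02. It was higher in induced than in uninduced arrays by 0.38 (SE 0.09, limma adjusted p = 0.0451), a call lost in 12 of 19 alternatives. The log2 fold change of induced against GFP was -0.33 (adjusted p = 0.0717). That of uninduced against GFP was -0.72 (SE 0.09, adjusted p = 0.00042), a call held in all 19. RHOH was dim, at mean percentiles of 26.1, 33.6 and 41.1 in uninduced, induced and GFP arrays, so these sizes can be understated. How much of the construct's transcript its probe set reads is not known, and the directions that follow rest on the labels.

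MYC had the widest range of the 7 factors across groups and was the 1 member that changed in each of the 3 comparisons. Its log2 signals were 11.64, 11.67 and 11.73 in uninduced RhoH cells, 10.62, 10.83 and 11.05 in induced RhoH cells, and 10.18, 9.97 and 10.08 in GFP cells with 4-OHT. The groups did not overlap, and the order was uninduced, induced, GFP, with every neighbour in that order different beyond the spread. MYC fell by 0.85 on the log2 scale with 4-OHT in RhoH cells (SE 0.11, limma adjusted p = 0.00287). It was 1.69-fold higher in induced RhoH than in GFP cells (log2 fold change 0.76, SE 0.11, adjusted p = 0.00469) and 3.04-fold higher in uninduced RhoH than in GFP cells (1.61, SE 0.11, adjusted p = 9.37e-06). Its induced mean lay 47.1% of the way from the GFP mean to the uninduced mean. The 3 calls held in all 19 alternatives, with adjusted p up to 0.0273 for the induction, up to 0.0336 for induced RhoH against GFP and up to 0.000153 for uninduced RhoH against GFP. Without both RhoH replicate 1 arrays, which was tried only once the values were known, the induction was -0.76 (adjusted p = 0.0123). The comparisons share groups, so their values are not independent.

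MYB followed the same order of groups, with a narrower range. Its log2 signals were 11.18, 11.16 and 11.20 in uninduced RhoH cells, 10.98, 10.89 and 10.52 in induced RhoH cells, and 10.24, 10.17 and 10.27 in GFP cells. The 3 groups did not overlap, and the induced arrays were the most spread, with replicate 3 the lowest for MYB although it was the highest of its group for MYC. MYB was 1.49-fold higher in induced RhoH than in GFP cells (0.57 on the log2 scale, SE 0.12, limma adjusted p = 0.0218) and 1.93-fold higher in uninduced RhoH than in GFP cells (0.95, SE 0.12, adjusted p = 0.000350). With 4-OHT in RhoH cells its log2 fold change was -0.38 (SE 0.12, 95% interval -0.64 to -0.12, adjusted p = 0.125), which did not pass over all genes. The call against GFP in induced cells was lost without induced replicate 1 (adjusted p = 0.0521), without induced replicate 2 (0.0641), without GFP replicate 1, 2 or 3 (0.0868, 0.105 and 0.0784) and without both RhoH replicate 1 arrays (0.0510).

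GFI1 was higher in both RhoH groups than in GFP cells and did not pass in the induction. Its log2 signals were 8.59, 8.87 and 8.70 in uninduced RhoH cells, 8.50, 8.68 and 8.72 in induced RhoH cells, and 8.16, 8.12 and 8.13 in GFP cells. All 6 RhoH arrays lay above the 3 GFP arrays, and the RhoH groups overlapped. GFI1 was 1.41-fold higher in induced RhoH than in GFP cells (0.49 on the log2 scale, SE 0.10, limma adjusted p = 0.0188) and also higher in uninduced RhoH than in GFP cells (0.58, SE 0.10, adjusted p = 0.00244). With 4-OHT in RhoH cells its log2 fold change was -0.09 (95% interval -0.30 to 0.13, adjusted p = 0.806). The call for induced RhoH against GFP was lost without induced replicate 2 (adjusted p = 0.0541) or GFP replicate 1, 2 or 3 (0.0735, 0.0919 and 0.0851).

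**Figure D1:**
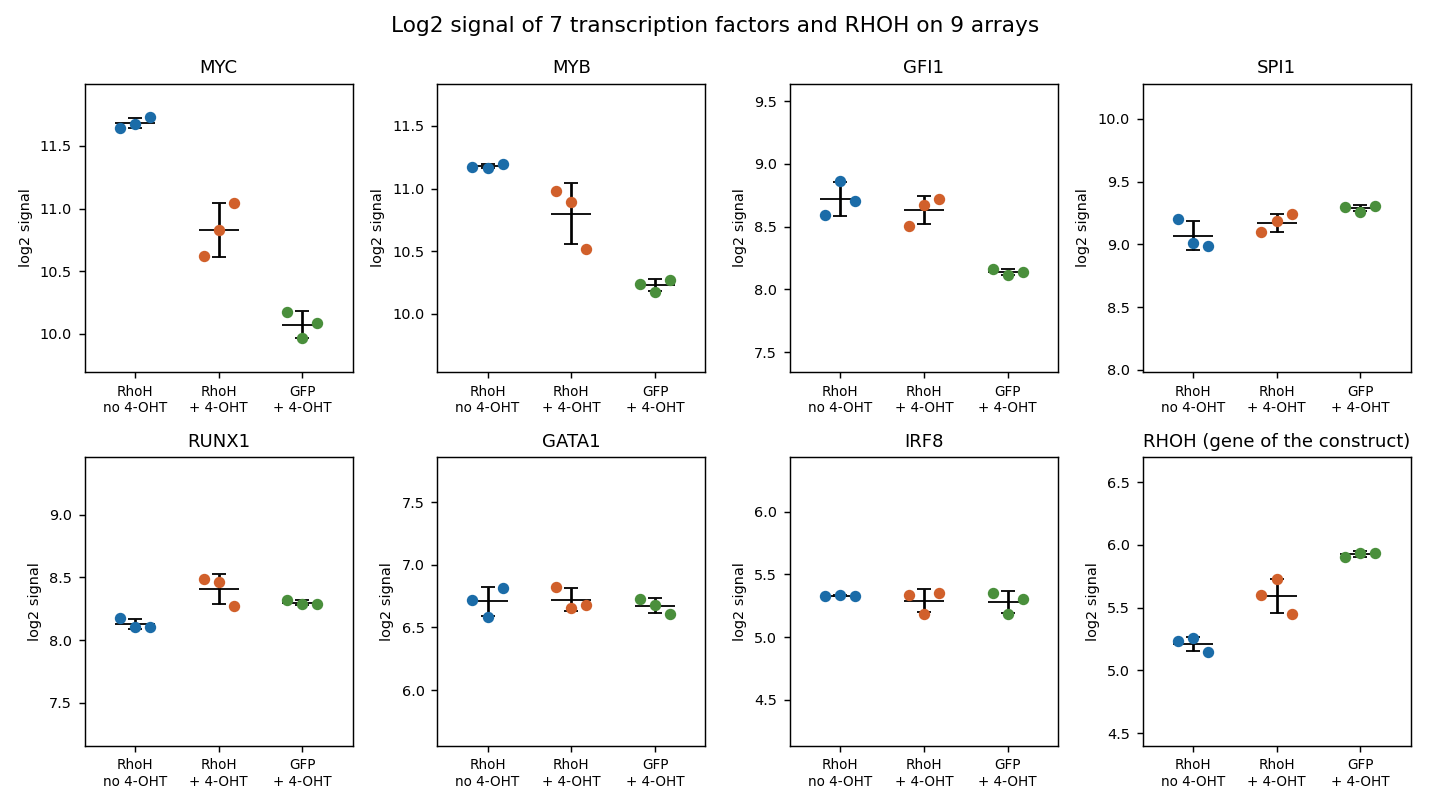
Log2 signal (vertical axis, the same height of 2.3 log2 units in every panel) of MYC, MYB, GFI1, SPI1, RUNX1, GATA1, IRF8 and RHOH on each of the 9 arrays (points), with the group mean and SD (bars, n = 3). MYC falls from 11.68 in uninduced RhoH to 10.83 in induced RhoH and 10.07 in GFP cells, MYB takes the same order, GFI1 is lower in GFP cells alone, and RHOH takes the opposite order to MYC.

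Within each array the log2 difference between MYC and GFI1 was taken, which shows whether the pair changed unequally. It was 2.96 ± 0.13 (SD, n = 3) in uninduced RhoH, 2.2 ± 0.11 in induced RhoH and 1.94 ± 0.08 in GFP cells, and no groups overlapped. MYC thus changed by -0.76 relative to GFI1 with 4-OHT. Between MYC and MYB the difference was 0.50 ± 0.03 in uninduced, 0.03 ± 0.45 in induced and -0.15 ± 0.08 in GFP cells, and the induced arrays overlapped both other groups. Of 9 such relations among MYC, MYB and GFI1, 5 did not overlap, each with a two-sided exact permutation p of 0.1, the smallest that 3 against 3 allows (0.18 after Benjamini-Hochberg adjustment over the 9). The other 4 had an exact p of 0.2 to 0.8.

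SPI1, the master factor of myeloid cells, differed little. The log2 signals were 9.20, 9.01 and 8.99 in uninduced RhoH, 9.10, 9.18 and 9.24 in induced RhoH and 9.30, 9.26 and 9.30 in GFP cells, and the GFP arrays lay above all RhoH arrays. In uninduced RhoH against GFP its log2 fold change was -0.22 (SE 0.09, limma adjusted p = 0.137), and this passed without uninduced replicate 1 (-0.28, adjusted p = 0.0492). In the induction it was 0.11 (95% interval -0.09 to 0.30, adjusted p = 0.706) and in induced RhoH against GFP -0.11 (-0.31 to 0.08, adjusted p = 0.571).

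RUNX1, the DNA-binding partner of CBFB, was highest in the induced group. Array by array the log2 signals were 8.17, 8.10 and 8.11 in uninduced RhoH, 8.49, 8.46 and 8.27 in induced RhoH and 8.32, 8.29 and 8.29 in GFP cells. All induced arrays lay above all uninduced arrays, and the GFP arrays lay within the range of the induced ones. The log2 fold change of the induction was 0.28 (SE 0.08, 95% interval 0.09 to 0.47, limma adjusted p = 0.120), and it passed without induced replicate 3 (0.35, adjusted p = 0.0345). Against GFP the induced arrays were at 0.11 (adjusted p = 0.580) and the uninduced at -0.17 (adjusted p = 0.238).

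GATA1 and IRF8 showed no difference beyond the spread of the arrays. GATA1 ran from 6.59 to 6.82 in uninduced RhoH, 6.66 to 6.82 in induced RhoH and 6.61 to 6.73 in GFP cells, and every pair of groups overlapped. Its log2 fold changes were 0.01, 0.05 and 0.03 in the 3 comparisons, with 95% intervals between -0.19 and 0.25 and limma adjusted p of 0.842 to 0.978. IRF8 ran from 5.33 to 5.34, 5.18 to 5.35 and 5.19 to 5.35 in the same order of groups. Its log2 fold changes were -0.04, 0.01 and 0.05, with intervals between -0.23 and 0.24 and adjusted p of 0.754 to 0.971. IRF8 lay between percentiles 26.5 and 29.6 of the tested genes, where signals are compressed towards the background and a change can be understated. The sign of these small values turned under quantile normalization or median centring for GATA1 in the induction and for IRF8 against GFP.

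Counted over the 7 factors, 1 was called in the induction (MYC, lower), against 3.78% of all 14778 genes called, 3.02% higher and 0.751% lower. In induced RhoH against GFP 3 were called, all higher (MYC, MYB and GFI1), against 4.49% of all genes called, 1.74% higher and 2.75% lower. Between uninduced RhoH and GFP the same 3 were called higher, against 15.3% called, 6.01% higher and 9.27% lower. The arrays did not overlap for 3, 4 and 5 of the 7 in the 3 comparisons, against 14.5%, 22.5% and 37.3% of all genes. The median log2 fold change of the 7 was -0.04, 0.11 and 0.05, against -0.004, 0.03 and 0.05 over all genes. Without both RhoH replicate 1 arrays the counts were 1, 2 and 4, the last with SPI1 lower (-0.28, adjusted p = 0.0226). Without induced replicate 2, or GFP replicate 1, 2 or 3, the 3 of induced RhoH against GFP became 1, and without induced replicate 3 the 1 of the induction became 2. The order uninduced above induced above GFP with no overlap at either step, which MYC and MYB showed, was found in 235 genes (1.59%), and the opposite order, which RHOH showed, in 565 genes (3.82%).

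**Figure D2:**
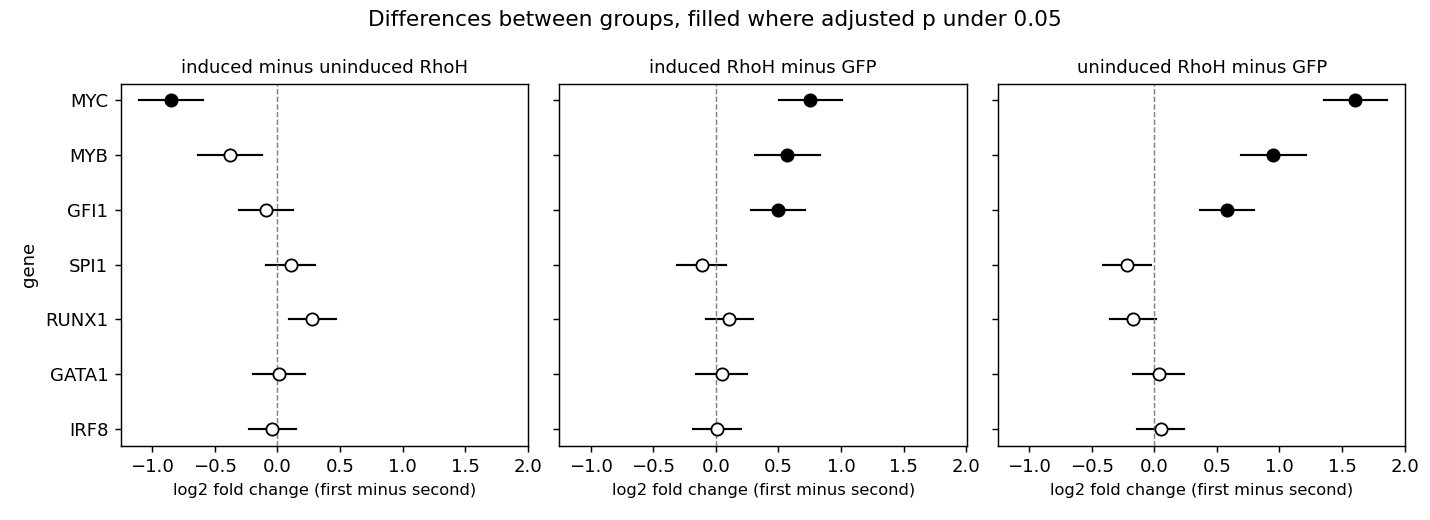
Log2 fold change (horizontal axis) of the 7 factors in the 3 comparisons, with the 95% interval of the limma fit (lines) and filled points where the adjusted p was under 0.05. MYC is filled in all 3 panels, at -0.85, 0.76 and 1.61, MYB and GFI1 are filled in both comparisons with GFP, and SPI1, RUNX1, GATA1 and IRF8 are open throughout.

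Promyelocyte markers were lower in GFP cells, with all 6 group means below those of both RhoH groups. The mean log2 signal of the 6 promyelocyte markers was 11.29 to 11.43 in uninduced RhoH, 10.96 to 11.36 in induced RhoH and 10.11 to 10.19 in GFP arrays. That of the 3 monocyte markers was 5.30 to 5.62, 5.34 to 5.64 and 5.83 to 6.05, but the markers did not move together. CD14 had group means of 5.39, 5.51 and 6.86, CSF1R 6.63, 6.97 and 6.95, and CD163 4.26, 4.13 and 4.05. The part of these markers in the differences of MYC, MYB and GFI1 was not tested. In bulk RNA a smaller share of cells with a transcript and less of it per cell cannot be told apart.

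Target genes of MYC stood with MYC where RhoH cells without 4-OHT were compared with GFP cells. Of 25 measured target genes, 15 were higher and 1 was lower in uninduced RhoH (64% called, against 15.3% of all genes), and the median log2 fold change was 0.44 against 0.05 over all genes. The highest were TERT, which encodes the catalytic subunit of telomerase (1.21, limma adjusted p = 0.000375), and BOP1 (1.08, adjusted p = 0.000847), a ribosome assembly factor. BOP1 had 2 probe sets and was read at the brighter, and its value was 0.74 to 1.12 over the 19 alternatives. APEX1, a DNA repair endonuclease (0.99, adjusted p = 0.000190), and the G1 kinase CDK4 (0.56, adjusted p = 0.000859) were also higher. The 1 gene called lower was ODC1, the rate-limiting enzyme of polyamine synthesis, at -1.27 in uninduced RhoH against GFP (adjusted p = 3.4e-06). E2F1 was also lower there, at -0.25, but was not called (adjusted p = 0.148). The 15 higher genes became 9 without uninduced replicate 2, 8 without uninduced replicate 3 and 7, 8 and 7 without GFP replicate 1, 2 and 3, and 19 without both RhoH replicate 1 arrays.

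With 4-OHT in RhoH cells the same list had 1 gene higher and 5 lower of 25 (24% called, against 3.78% of all genes, of which 0.751% lower), with a median of -0.32 against -0.004 over all genes. The nucleolar RRP12 fell by 0.79 (limma adjusted p = 0.0359), TERT by 0.74 (adjusted p = 0.0239), BOP1 by 0.65 (adjusted p = 0.0455), the nucleolar protein gene NCL by 0.38 (adjusted p = 0.0440) and NOP58, a core protein of small nucleolar particles, by 0.31 (adjusted p = 0.0417). ODC1 rose by 1.00, 2.01-fold (SE 0.07, adjusted p = 7.28e-05). The 9 log2 signals were 11.92, 11.94 and 11.88 in uninduced, 12.87, 12.90 and 12.98 in induced and 13.19, 13.17 and 13.18 in GFP cells. The groups of ODC1 did not overlap, and their order was the reverse of that of MYC. The 5 lower genes became 0 without uninduced replicate 2 or 3, without GFP replicate 1, 2 or 3, or when only the 6 arrays compared were fitted. They became 2 without uninduced or induced replicate 1 or without both, and 9 without induced replicate 3. Between induced RhoH and GFP 2 of the 25 were higher and 0 lower (8% called against 4.49% of all genes, median 0.10 against 0.03), APEX1 (0.59, adjusted p = 0.0143) and the serine hydroxymethyltransferase SHMT2 (0.34, adjusted p = 0.0412). These 2 calls became 0 without GFP replicate 1, 2 or 3, 1 without uninduced replicate 2 or 3 or induced replicate 2 or 3, and 4 without both RhoH replicate 1 arrays.

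**Figure D3:**
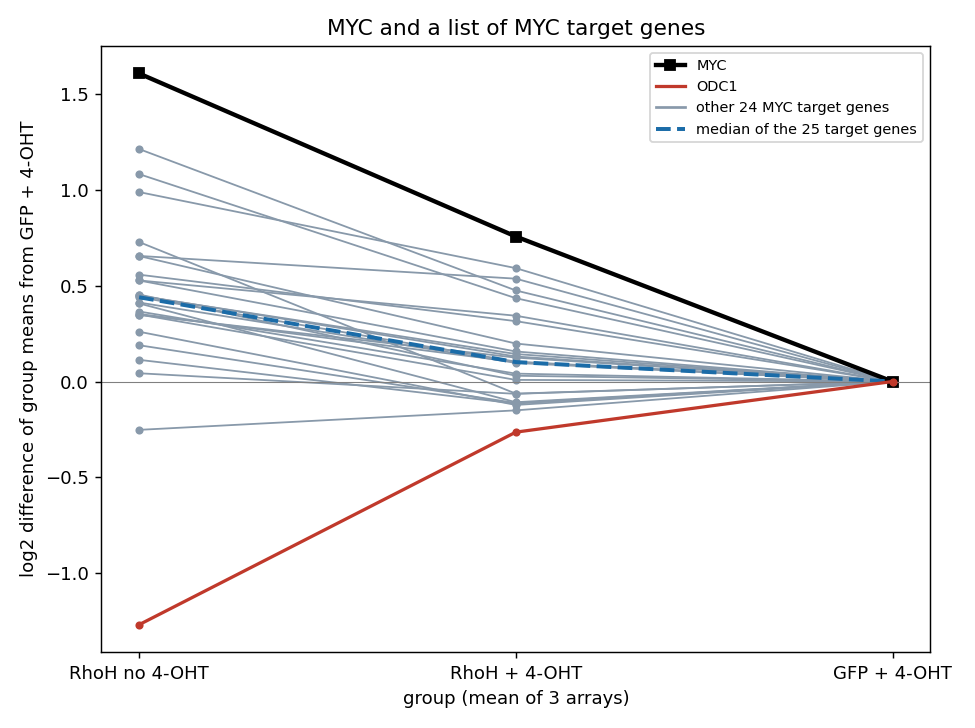
Log2 difference of each group mean (3 arrays) from the mean in GFP cells with 4-OHT (vertical axis) for MYC (black), ODC1 (red), the other 24 measured MYC target genes (grey) and the median of the 25 (dashed). MYC stands at 1.61 in uninduced and 0.76 in induced RhoH cells, the median of the targets at 0.44 and 0.10, and ODC1 at -1.27 and -0.26.

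In the order of MYC with no overlap of arrays stood 7 of the 25 target genes (CDK4, TERT, NOP58, PHB1, SHMT2, APEX1 and BOP1), against 1.59% of all genes, and ODC1 stood in the opposite order. CDK4 had log2 signals of 11.44, 11.44 and 11.38 in uninduced RhoH, 11.17, 11.10 and 11.27 in induced RhoH and 10.89, 10.85 and 10.85 in GFP cells. APEX1 had 11.54, 11.51 and 11.49, then 11.02, 10.96 and 11.36, then 10.46, 10.58 and 10.53. A start-site window was found for 18 of the 25 target genes, and 9 of the 18 (50%) held the E-box, against 7.73% of 27305 genes with a window. Of the 9 with an E-box, 7 were higher in uninduced RhoH than in GFP cells (CDK4, LDHA, TERT, SRM, HSPD1, PPAT and APEX1), and of the 9 without it 2 (FBL and PHB1). Of all genes 6.01% were called higher in that comparison. In the induction 1 of the 9 with an E-box was called lower (TERT) and 1 of the 9 without it (NCL). Of all genes 0.751% were called lower there. Whether the E-box and the calls went together was not tested. Target genes without a window, such as BOP1, SHMT2 and NOP58, are outside this split. ODC1 also holds an E-box, 29 bases before the inner of its start sites. The list was drawn from genes known as MYC targets, so the share with an E-box is a description of that choice.

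Of 17 measured network partners of MYC, 1 was higher and 0 lower in the induction, the kinase PIM1 (0.64, limma adjusted p = 0.0352; median -0.02). The shares called were 5.88%, 5.88% and 17.6% in the induction, induced RhoH against GFP and uninduced RhoH against GFP, near the 3.78%, 4.49% and 15.3% over all genes. That call was lost when any 1 array other than induced replicate 1 was left out. For induced RhoH against GFP 0 were higher and 1 lower (median -0.02), MXD1, a partner of MAX that opposes MYC at the E-box (-0.52, adjusted p = 0.00591). For uninduced RhoH against GFP 1 was higher, the ATPase gene RUVBL2 (0.85, adjusted p = 0.0111), and 2 lower, PIM1 (-1.02, adjusted p = 0.000794) and MXD1 (-0.71, adjusted p = 0.000240), with a median of -0.06. Without both RhoH replicate 1 arrays these became 3 higher and 2 lower. MXD1 had log2 signals of 9.18, 9.33 and 9.26 in uninduced RhoH, 9.50, 9.35 and 9.48 in induced RhoH and 9.98, 9.98 and 9.93 in GFP cells. Its GFP arrays lay above all RhoH arrays, the reverse of MYC, and its own change in the induction was 0.19 (adjusted p = 0.318). MAX itself was at 0.08, 0.02 and -0.06 in the 3 comparisons (adjusted p of 0.647 to 0.929).

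Of 13 measured MYB target genes, 2 were higher and 0 lower in the induction (15.4% called against 3.78% of all genes, median -0.02), the tetraspanin CD53 (1.29, limma adjusted p = 0.000108) and KIT, the receptor of stem cell factor (0.67, adjusted p = 0.00290). In induced RhoH against GFP 3 were higher, among them the protease gene PRTN3 (1.69, adjusted p = 0.000134) and BCL2, which protects cells from apoptosis (0.99, adjusted p = 0.000550). In the same comparison 2 were lower, one of them the prostaglandin synthase PTGS2 (-0.94, adjusted p = 0.0417), whose call was lost when any 1 array other than GFP replicate 1 was left out. The share called was 38.5% against 4.49% of all genes, and the median was 0.09. In uninduced RhoH against GFP 4 were higher and 4 lower (61.5% called against 15.3% of all genes, median 0.07), with PRTN3 at 1.84, CD53 at -1.54 and KIT at -1.20 (adjusted p = 1.28e-05, 6.61e-06 and 1.32e-05). KIT lay among the dimmest 25% of genes, where signals are compressed, so its size is uncertain, and it was not tested in the alternative that leaves those genes out.

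Of 11 measured partners and repressed genes of GFI1, none was called by limma in the induction (at an unadjusted p under 0.05, 0 were higher and 1 lower; median -0.0004), the largest difference being that of EHMT2, a histone methyltransferase (-0.35, adjusted p = 0.179). None was called in induced RhoH against GFP (at an unadjusted p under 0.05, 0 were higher and 0 lower; median 0.08), where BAX was at -0.27 (adjusted p = 0.354). For uninduced RhoH against GFP 1 was higher (9.09% called against 15.3% of all genes, median 0.09). It was EHMT2 (0.55, adjusted p = 0.0107, and 0.0557 without GFP replicate 3). That count of 1 became 0 without GFP replicate 3, 3 without induced replicate 1, and 2 without induced replicate 3 or without both RhoH replicate 1 arrays. The relative GFI1B was at -0.05, 0.16 and 0.21 (adjusted p of 0.422 to 0.948).

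The C/EBP factors themselves are not analysed here, but 14 of their relatives and targets were measured. None was called by limma in the induction (at an unadjusted p under 0.05, 2 were higher and 1 lower; median 0.05), and the eosinophil peroxidase EPX stood at -0.75 (adjusted p = 0.0560), which passed without uninduced replicate 3. For induced RhoH against GFP 3 were higher and 1 lower (28.6% called against 4.49% of all genes, median 0.09), with the granulocyte adhesion molecule CEACAM8 at 2.49 (adjusted p = 6.1e-06), EPX at 1.99 (adjusted p = 0.000266) and CLC at 1.55 (adjusted p = 0.0266). The counts became 2 higher and 0 lower without any 1 GFP array, with CLC among the calls lost. Between uninduced RhoH and GFP 3 were again higher and 1 lower (28.6% called against 15.3% of all genes, median -0.03). EPX was at 2.73, CEACAM8 at 2.50 and CLC at 1.75 (adjusted p = 7.12e-06, 8.73e-07 and 0.00497).

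Of 13 measured targets of SPI1 and IRF8, 3 were higher and 0 lower in the induction (23.1% called against 3.78% of all genes, median 0.11). They were the lysosomal glycoprotein CD68 (1.11, limma adjusted p = 0.000834), the myeloid kinase FES (0.91, adjusted p = 0.00368) and the protease CTSS (0.76, adjusted p = 0.0133). SPI1 and IRF8 were not called in that comparison. The call of CTSS in the induction was lost when only the 6 arrays compared were fitted (limma adjusted p = 0.0875). Between induced RhoH and GFP 0 were higher and 1 lower (7.69% called against 4.49% of all genes, median -0.11), CD14 at -1.35 (adjusted p = 0.00726). The lower count became 2 without uninduced replicate 1 or without both RhoH replicate 1 arrays. In uninduced RhoH against GFP 0 were higher and 5 lower (38.5% called against 15.3% of all genes, median -0.18), led by CD14 (-1.47), CD68 (-1.41) and CTSS (-1.30), with adjusted p of 0.00126, 3.87e-05 and 0.000126.

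Of 9 measured partners and targets of GATA1, GATA2, its relative in stem cells and mast cells, rose in the induction by 1.04 (SE 0.10, limma adjusted p = 0.000347; 1 higher and 0 lower, median -0.04). Signals on the log2 scale were 7.93, 8.28 and 8.16 in uninduced RhoH, 9.21, 9.11 and 9.16 in induced RhoH and 8.54, 8.48 and 8.43 in GFP cells, so the induced arrays lay above both controls. Against GFP the induced cells were at 0.67 (adjusted p = 0.00444; 1 higher and 0 lower, median 0.07). Between uninduced RhoH and GFP KLF1, an erythroid factor, was higher (0.53, adjusted p = 0.0460) and GATA2 lower (-0.36, adjusted p = 0.0344; median 0.07). Both calls were lost without uninduced replicate 1 or 3 or any 1 GFP array, and that of KLF1 also without uninduced replicate 2 or without both RhoH replicate 1 arrays. In induced RhoH against GFP the count of 1 became 2 without induced replicate 2. The shares called were 11.1% in the induction, 11.1% in induced RhoH against GFP and 22.2% in uninduced RhoH against GFP. Over all genes they were 3.78%, 4.49% and 15.3%.

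Of 10 measured partners and targets of RUNX1, none was called by limma in the induction (at an unadjusted p under 0.05, 4 were higher and 0 lower; median 0.14), where RUNX3 was at 0.54 (adjusted p = 0.174). None was called in induced RhoH against GFP (at an unadjusted p under 0.05, 2 were higher and 2 lower; median 0.01), where ETS1 was at -0.52 (adjusted p = 0.212), and 1 was higher without induced replicate 3. For uninduced RhoH against GFP 2 were higher and 2 lower (40% called against 15.3% of all genes, median -0.17), with ETS1 at -0.80 (adjusted p = 0.0194), CD4 at -0.61 (adjusted p = 0.00571) and ERG, a stem cell factor, at 0.43 (adjusted p = 0.0150). These 4 became 0 higher and 1 lower without GFP replicate 2 or 3. The call of ETS1 was also lost without uninduced replicate 1 or 3 and without both RhoH replicate 1 arrays (adjusted p up to 0.0897 over its alternatives), and that of ERG without uninduced replicate 3 (up to 0.0716).

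Of 50 other factors of blood cells, 9 were higher and 0 lower with 4-OHT in RhoH cells (18% called, median 0.17 against -0.004 over all genes). Calls over all genes were also mostly upward in this comparison, with 3.02% higher and 0.751% lower. The AP-1 subunit JUN was highest (3.60, limma adjusted p = 3.99e-05), followed by the interferon regulator IRF1 (1.57, adjusted p = 0.00551) and the nuclear receptor PPARG (1.54, adjusted p = 0.000188). PPARG had log2 signals of 6.26, 5.73 and 5.74 in uninduced RhoH and 8.85, 8.90 and 8.83 in GFP cells. On the 3 induced arrays its values were identical (7.45509, SD 0). Why they were identical was not tested, and the spread of that group may be understated. Between induced RhoH and GFP 6 were higher and 2 lower (16% called against 4.49% of all genes, median 0.08), with PPARG at -1.41 (adjusted p = 0.000309), the progenitor repressor ZBTB16 at 0.86 (adjusted p = 0.00613) and LYL1, a helix-loop-helix factor of stem cells, at 0.70 (adjusted p = 0.00726). The 6 and 2 became 3 and 2, 4 and 1, and 3 and 1 without GFP replicate 1, 2 and 3. In uninduced RhoH against GFP 7 were higher and 13 lower (40% called against 15.3% of all genes, median -0.01), with JUN at -4.27, PPARG at -2.95 and IRF1 at -2.23 (adjusted p = 2.78e-06, 7.73e-07 and 0.000147). MYBL2, a relative of MYB, was at -0.004, 0.06 and 0.07 (adjusted p of 0.722 to 0.993).

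**Figure D4:**
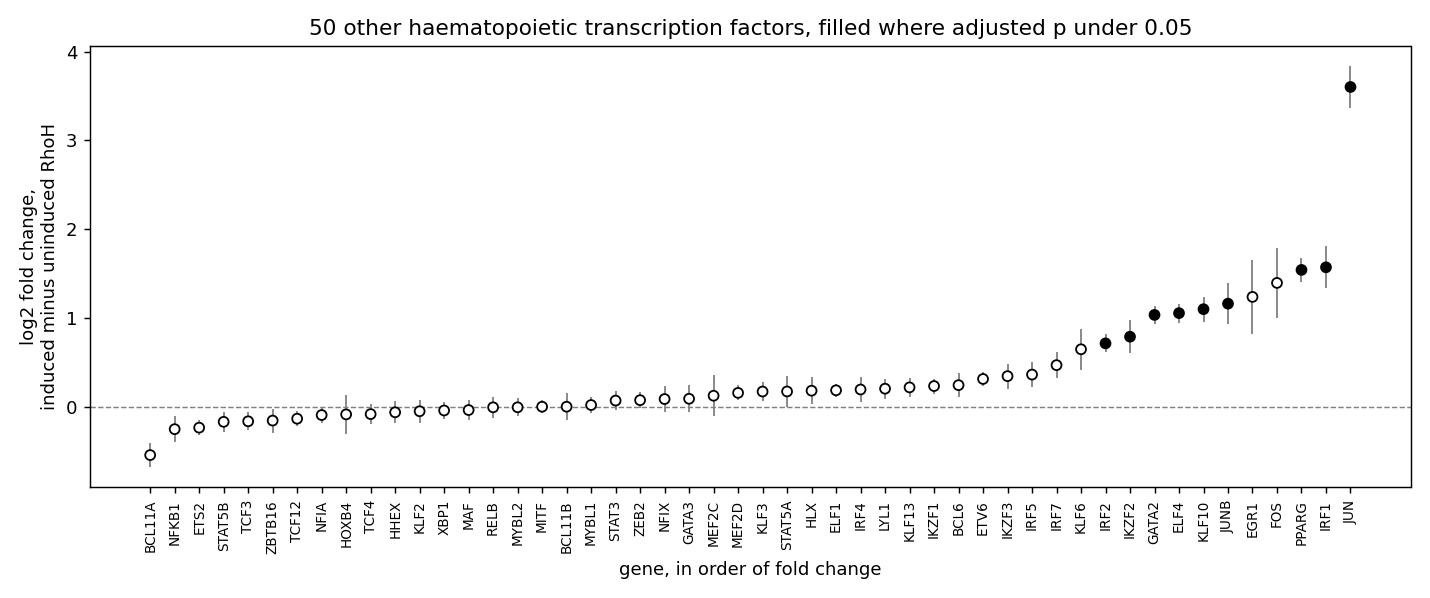
Log2 fold change with its SE (vertical axis) of 50 other haematopoietic transcription factors, induced minus uninduced RhoH, in order of size, filled where the limma adjusted p was under 0.05. The 9 filled points lie above 0, with JUN at 3.60, IRF1 at 1.57 and PPARG at 1.54, and none of the genes below 0 is filled.

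Genes whose pattern over the 9 arrays was most like that of MYC were CD320, the receptor for vitamin B12 bound to its carrier, ROPN1L and the kinase gene MATK. After each gene was centred on its mean, their root mean square difference from MYC was 0.12, 0.14 and 0.15 on the log2 scale, where the group means of MYC span 1.61. CD320 had group means of 9.05 in uninduced RhoH, 8.29 in induced RhoH and 7.62 in GFP cells. For MYB they were UBXN8, the E2F partner gene TFDP2 and ATP23, at 0.14, 0.14 and 0.15 with a span of 0.95. For GFI1 they were the actin-binding calponin gene CNN2, MEX3C and SLC66A2, at 0.06 each with a span of 0.58. The 9 arrays share 3 groups, so these differences describe likeness over few independent conditions.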

How the data were processed

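Total RNA of 9 samples was hybridised to Affymetrix whole-transcript arrays. The table the authors deposited holds a log2 value for each of 43550 probe sets on each array. RMA, limma and the Affymetrix Power Tools are named in the submitters' processing notes; their versions and the genome build are not given in the sources used here. Low signals are compressed by RMA, and the values hold no counts, so the number of arrays limits the precision.

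A table of the platform annotation named 15659 probe sets with 1 gene each. The other 27891 probe sets, with no gene named or more than 1, were left out, and these kinds were not counted apart. Symbols were updated through RefSeq (GRCh38.p14). The probe set with the highest mean was kept, leaving 14778 genes.

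Groups came from sample titles. limma 3.58.1 in R 4.3.3 fitted 3 group means over all 9 arrays, with Benjamini-Hochberg adjustment over 14778 genes and calls at an adjusted p under 0.05. The 3 groups share 1 estimate of the spread of a gene, so its SE is the same in the 3 comparisons. The SD of the deviation from the group mean was 0.090 to 0.096 on GFP arrays and 0.130 to 0.206 on RhoH arrays. SEs and intervals of the induction can thus be too narrow. The script was tested on simulated data. The members and 9 gene lists (242 symbols, 156 measured) were chosen with earlier results of these data known. From each list up to 3 called genes a comparison with the largest fold change and no overlap of arrays are named, or the largest where none was called. BOP1, NCL, NOP58, CDK4, MAX, GFI1B and MYBL2 were named after their values were seen. Replicate numbers did not pair all the samples and were not used in the main fit.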

Additional observations from a re-analysis of the deposited data

How the results depend on the processing

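Of the 19 alternatives, 1 (without both RhoH replicate 1 arrays) was chosen after seeing the data. The 3 calls of MYC and those of MYB and GFI1 in uninduced RhoH against GFP held in all 19. With array weights the count of called members was 2 in the induction (RUNX1 at 0.33, adjusted p = 0.0198) and 5 in uninduced RhoH against GFP (SPI1 and RUNX1 lower). Leaving out 1 array gave counts of 1 to 2 in the induction, 1 to 3 in induced RhoH against GFP and 3 to 4 in uninduced RhoH against GFP. MYB in induced RhoH against GFP did not pass with only the 6 arrays compared (adjusted p = 0.0647) or with all probe sets tested (0.0532). The cause was not tested.

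Signs that turned were those of uncalled values. GATA1 in the induction was -0.0267 after quantile normalization again, -0.00885 with arrays centred on their median, -0.0553 with array weights, -0.0358 without both RhoH replicate 1 arrays, and -0.0473 to 0.0679 when 1 array was left out. Against GFP it was -0.00532 in induced RhoH without both replicate 1 arrays, with -0.00532 to 0.0794 when 1 array was left out, and -0.0204 to 0.0948 in uninduced RhoH. IRF8 in induced RhoH against GFP was -0.0485, -0.0104 and -0.0561 in the same first 3 settings, -0.0142 without both replicate 1 arrays and -0.0383 to 0.063 when 1 array was left out. Its value in the induction was -0.0722 to 0.0127 when 1 array was left out, and in uninduced RhoH against GFP -0.00582 after quantile normalization.

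Over all genes, array weights raised the calls from 558, 664 and 2258 to 950, 1176 and 4326, and quantile normalization to 953, 948 and 2798. With only the 6 arrays compared the 558 became 190. The MYC target list had 13 lower genes instead of 5 in the induction with array weights and 0 with all probe sets tested. With the replicate number as a block, 1, 3 and 3 members were called in the 3 comparisons, as without it, and MYC in the induction stayed at -0.85. Of the 9 lists 1, 2 and 1 had a count that changed by over 1.5 times, or to or from 0. The numbers did not pair all the samples. Deviations of same-numbered arrays correlated at -0.03 to 0.54, over 0.1 in 6 of 9 pairs, and 5 of 9 arrays correlated best with their own number. The highest values were those of uninduced with induced RhoH, at 0.54 for replicate 1 and 0.37 for replicate 2, with 0.07 for replicate 3.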
